A study of Oryctolagus cuniculus with 12 samples.

Results

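The genes described here are ATP2A2, PLN, SLN, RYR2, CASQ2, HRC, NPPA and ANKRD1, which handle calcium in the sarcoplasmic reticulum of heart muscle or mark a heart muscle cell under load. They were taken as every probe on the array whose RefSeq accession belongs to one of these 8 rabbit gene symbols. This rule reads no measured value, but the 8 genes were picked with earlier results of these data known. They made up 8 of the 1264 gene symbols that could be given to a probe, and they had 37 probes among 43603. For 32 of them the signal passed detection on 8 or more of the 12 arrays. These were tested, and they covered 7 of the 8 genes, since HRC had no such probe.

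The samples were rings of the thoracic aorta, 4 mm long, from male New Zealand white rabbits aged 32 weeks, 1 ring and 1 single-colour Agilent array per rabbit. The rings came from the stretch above the narrowing, below the left subclavian artery. In the CoA group (coarctation, n = 4), the proximal descending aorta was narrowed at about 10 weeks of age with a permanent silk suture set to a pressure gradient of 20 mmHg. In the Corrected group (n = 4), the same narrowing was made with a Vicryl suture, which degrades and lets the vessel widen again with some residual narrowing. The Control group (n = 4) held rabbits outside the experiment, and no sham-operated group was among the samples. The narrowing was therefore placed in young animals and is not the congenital lesion.

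A heartbeat depends on calcium leaving and re-entering the sarcoplasmic reticulum. The pump encoded by ATP2A2 takes calcium up, phospholamban (PLN) and sarcolipin (SLN) hold the pump back, calsequestrin (CASQ2) and the histidine-rich calcium binding protein (HRC) bind calcium inside the store, and the ryanodine receptor (RYR2) lets it out. The atrial natriuretic peptide (NPPA) and the ankyrin repeat protein ANKRD1 are induced in heart muscle under load. Vascular smooth muscle uses the same pump and phospholamban to refill its own calcium store, whereas CASQ2, SLN, HRC and NPPA are best known from striated muscle.

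Signals are given on the log2 scale after quantile normalization, and the probe with the highest mean signal stands for each gene unless another is named. A probe was called when the groups differed by more than 2-fold with an unadjusted p under 0.05 in limma. The adjusted p-values are those of Benjamini and Hochberg over all 27283 probes tested. The 3 comparisons share their samples in pairs and the fit uses 1 estimate of the spread, so their values are not independent. In a ring of whole tissue, fewer cells of a type and less RNA per cell cannot be told apart.

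Some arrays stood apart before any comparison. Corrected replicate 3 had 45.6% of its spots well above background and the other 11 arrays had 55.8% to 77.7%, and it was left out of the tests as the label and the methods had done. CoA replicate 2 had the highest signal of the 11 arrays on 24.9% of tested probes. It was set to be shown apart when the genes were chosen, and values for CoA vs Control without it are given for each tested member. All 4 CoA arrays shared 1 scan, which the file headers give by time and array position and which is taken as a slide. It held no array of another group, so in comparisons of CoA with either group the slide cannot be told apart from the narrowing. Corrected replicates 1 and 4 were on a slide without Control arrays, and Corrected replicate 2 was on a slide with Control arrays. In Corrected vs Control the slide is therefore also partly mixed with the group. Control replicates 3 and 4 had close signals for several genes, such as CASQ2 (10.20 and 10.15) and PLN (10.59 and 10.67). They were less alike for others, such as NPPA (5.53 and 4.65). The labels list them as separate samples, and the tests count them as separate rabbits.

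PLN, whose product restrains the calcium pump, was the member called for CoA vs Control, and SLN, which encodes the other restraining peptide, was the member called for Corrected vs Control. RYR2, CASQ2 and ANKRD1 were far higher on CoA replicate 2 than on any other array, whereas ATP2A2 was not. In limma, 1 of the 7 tested genes was called higher in CoA than in Control, 1 in Corrected than in Control, and 0 differed between CoA and Corrected. Over all tested probes, 8.8% were called in the first of these comparisons (3.59% higher), 5.38% in the second (2.41% higher) and 2.76% in the third (1.43% higher). Among the brightest probes of all 956 named genes that were tested, these shares were 10.7%, 7.01% and 3.24%. The members' counts were also 1, 1 and 0 at an unadjusted p under 0.05 without the fold threshold, where 14.2%, 8.37% and 4.31% of all tested probes passed. A count of 1 in 7 genes is too small to set against these shares, and nothing is read from it about the members. After adjustment, 0 member genes and 0 of all probes were below 0.05 in any of the 3 comparisons. In the same order, the median log2 fold change of the 7 genes was 0.84, 0.87 and 0.52, whereas the median over all tested probes was 0.06, 0.03 and 0.02. Medians of other short gene lists also lay away from 0. In the first 2 comparisons they were 0.57 and 0.95 for macrophage genes and 0.53 and 0.67 for smooth muscle genes. For CoA vs Control they were negative for fast skeletal (-0.45), adipocyte (-2.22) and blood genes (-2.32). Without CoA replicate 2 the median of the 7 genes was 0.65 for CoA vs Control, and for CoA vs Corrected it turned to -0.27.

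**Figure D1:**
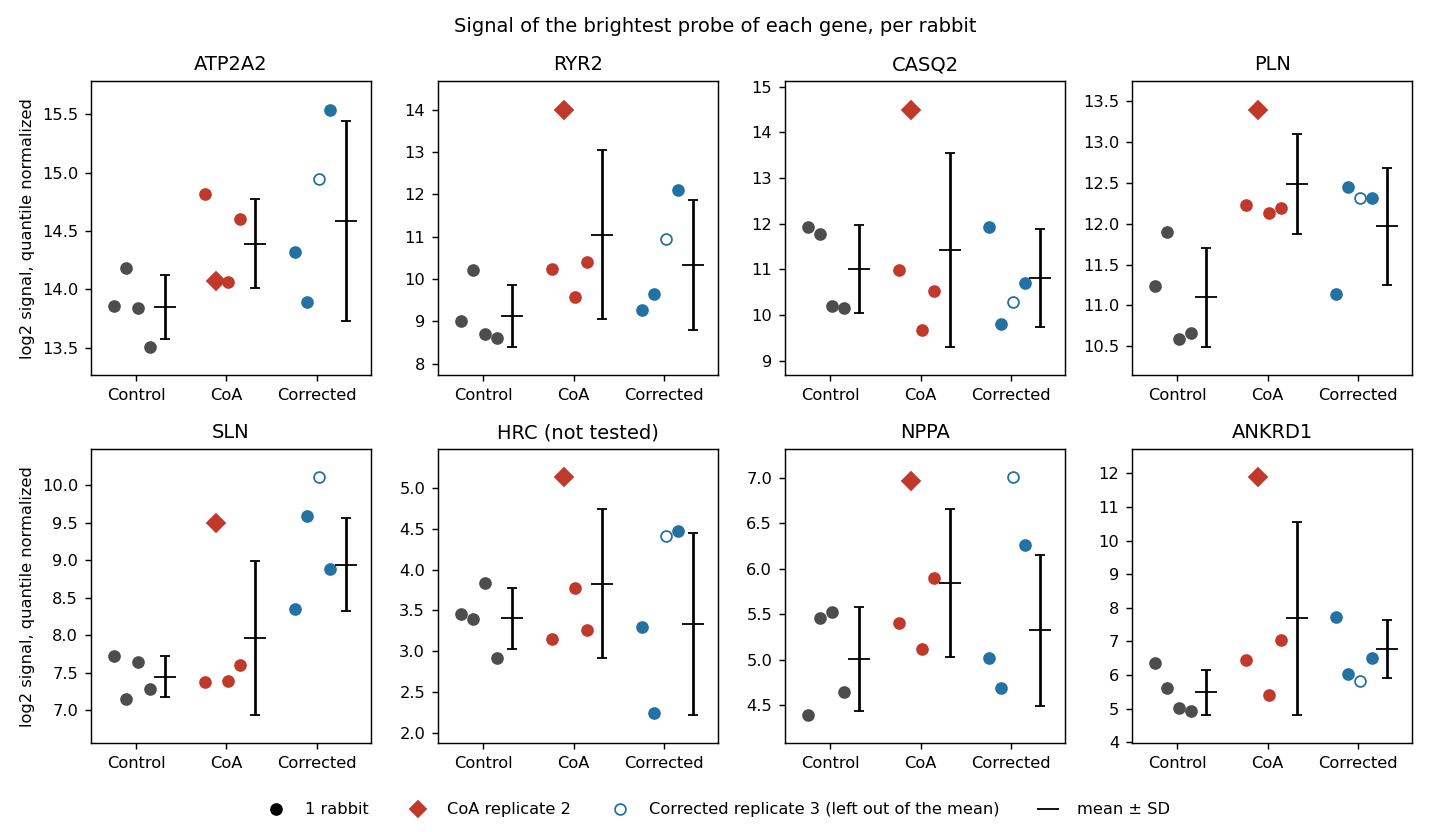
Log2 signal of the brightest probe of each gene (vertical axis, quantile normalized) for every rabbit of the Control, CoA and Corrected groups. Bars are the mean ± SD, the diamond is CoA replicate 2 and the open circle is Corrected replicate 3, which is left out of the mean. The 4 CoA rabbits lie above the 4 Control rabbits for PLN, the 3 Corrected rabbits used lie above the Control rabbits for SLN, and the diamond lies far above all other points for RYR2, CASQ2 and ANKRD1.

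The calcium pump ATP2A2 had a log2 signal of 13.86, 14.19, 13.84 and 13.51 in Control replicates 1 to 4. It had 14.82, 14.07, 14.06 and 14.60 in the CoA rabbits, and 14.32, 13.89 and 15.54 in Corrected replicates 1, 2 and 4. The groups overlapped, and the highest signal was that of Corrected replicate 4, not that of CoA replicate 2. The log2 fold change was 0.54 ± 0.36 (SE) for CoA vs Control, with an adjusted p of 0.50 in limma, and a two-sided exact permutation of the rabbits gave p = 0.086. Without CoA replicate 2 the log2 fold change was 0.65. For Corrected vs Control it was 0.74 ± 0.39 (SE, limma adjusted p = 0.651). It was 0.26 without Corrected replicate 4, and 1.08 without Corrected replicate 2, where ATP2A2 was called (limma adjusted p = 0.370). All 5 ATP2A2 probes had positive values in both comparisons, from 0.33 to 0.96 and from 0.69 to 0.86. The value of ATP2A2 for CoA vs Control depended on the scaling of the arrays: it was 1.06, and was called, when each array was scaled to its 75th percentile, which also moved the median of all probes to 0.21.

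PLN had a log2 signal of 11.24, 11.90, 10.59 and 10.67 in the Control rabbits. In the CoA rabbits it had 12.23, 13.40, 12.13 and 12.19, so that the lowest CoA rabbit was above the highest Control rabbit. The mean rose from 11.10 ± 0.61 (SD, n = 4) to 12.49 ± 0.61 (SD, n = 4). The difference was 1.39 on the log2 scale (SE 0.43, 95% confidence interval 0.45 to 2.33), or 2.62-fold. Its adjusted p was 0.262 in limma, and the two-sided exact permutation test gave p = 0.029, the smallest value that 4 rabbits against 4 allow. Such groups without overlap were found for 10.2% of all tested probes. The permutation test counts Control replicates 3 and 4, whose PLN signals were close, as separate rabbits. With them taken as 1 sample, PLN was still called, at 1.23 with an adjusted p of 0.605 in limma.

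PLN was represented by 7 probes, and each of the 7 was called for CoA vs Control with no overlap between the groups. Their differences were 1.18 to 1.43 on the log2 scale, and without CoA replicate 2 they were 0.90 to 1.09. The 7 probes followed one another across the arrays (r from 0.972 to 0.999), and since they report on the same gene in the same rings they are not separate evidence. CoA replicate 2 was the highest of the 11 arrays for PLN too, at 2.32-fold above the mean of the other CoA rabbits. Those other 3 had a mean of 12.18 ± 0.05 (SD, n = 3). Without CoA replicate 2 the brightest PLN probe was still called, with a log2 fold change of 1.09 and an adjusted p of 0.352 in limma. The other 6 probes, at 0.90 to 0.97, were then below 2-fold and lost their call.

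In the Corrected rabbits, PLN had 11.14, 12.45 and 12.31, of which the first lay among the Control values and the other two above all of them. The log2 fold change for Corrected vs Control was 0.87 ± 0.46 (SE, limma adjusted p = 0.650; two-sided exact permutation p = 0.143). For CoA vs Corrected it was 0.52, with a 95% confidence interval from -0.49 to 1.53. The excluded Corrected replicate 3 had 12.32.

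Markers of other cell types also moved between the CoA and Control rings. The troponin C genes of striated muscle were called higher for CoA vs Control, TNNC1 with a log2 fold change of 3.31 (limma adjusted p = 0.257) and TNNC2 with 3.12 (adjusted p = 0.247). TNNC1 had 8.83 to 11.10 in the Control rabbits and 12.32, 16.21, 12.39 and 11.56 in the CoA rabbits, with no overlap, and without CoA replicate 2 the differences were 2.28 and 2.12. TNNC2 ran beside TNNC1, with 8.12 to 10.02 in the Control rabbits and 11.21, 15.07, 11.45 and 10.53 in the CoA rabbits. Their calls are therefore not taken as separate evidence, and whether the probes share signal was not tested. TNNC1 was the 1 gene called of 11 tested in the sarcomere and conduction list, and TNNC2 the 1 of 7 in the fast skeletal list. Of 7 smooth muscle genes tested, 0 were called in any comparison, and their mean log2 signal was 9.95 to 10.99 in Control and 10.57 to 11.09 in CoA. All 3 blood genes tested (HBA, HBB2 and CA2) were called lower for CoA vs Control, with a mean of 14.10 to 14.91 in Control and 11.02 to 13.44 in CoA. Of 4 adipocyte genes tested, 2 were called lower (ADIPOQ and PPARG), and the mean of the 4 was 7.86 to 9.04 in Control and 5.21 to 7.98 in CoA. UCP1, detected on 7 of 12 arrays, was not tested and had a log2 fold change of -3.09. The neuropeptide gene NPY was called higher (log2 fold change 2.73, limma adjusted p = 0.217). Among genes of fibroblasts and matrix, 1 of 6 was called higher (TIMP1, mean of the list 12.57 to 13.31 in Control and 13.32 to 13.56 in CoA), and among those of macrophages 1 of 4 (SPP1, mean 7.60 to 8.23 and 8.33 to 9.32). Of 5 endothelial genes and 1 T cell gene tested, 0 were called. The T cell list had 5 genes with a named probe, and the others failed the detection filter and were not tested. Their log2 fold changes for CoA vs Control were -2.45 for CD3E, -2.19 for CD247, 0.29 for CD4 and 0.37 for CD28. The part of these markers in the PLN difference was not tested.

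**Figure D2:**
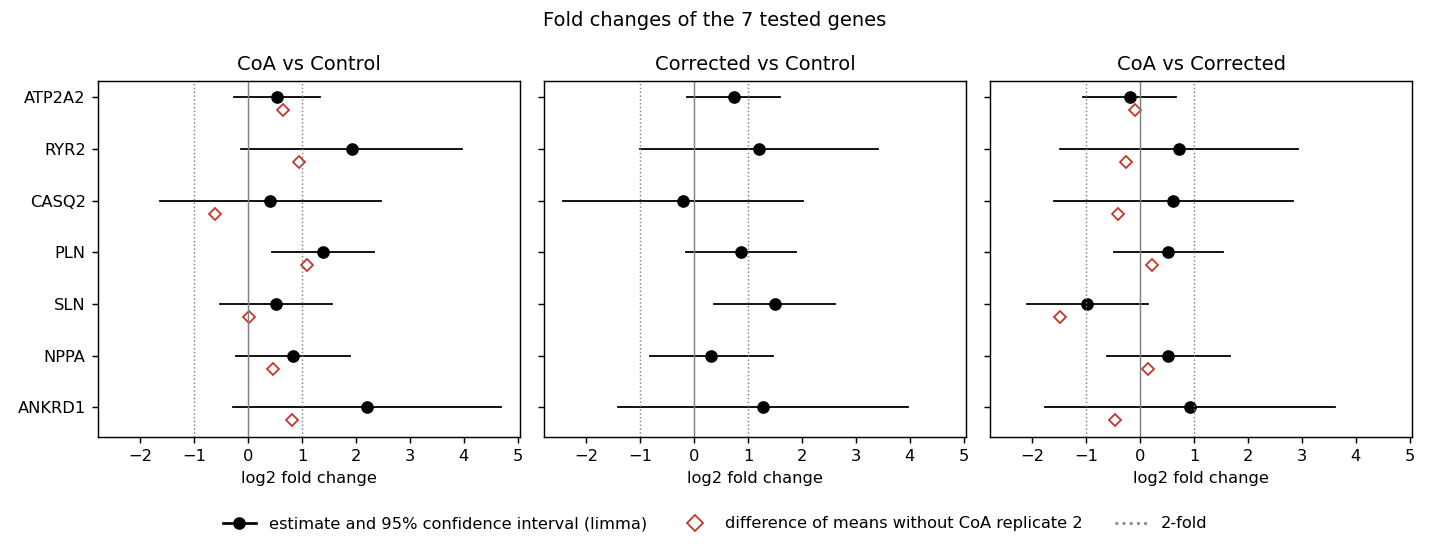
Log2 fold change of the 7 tested genes (horizontal axis) in each of the 3 comparisons, with 95% confidence intervals from limma as bars. Open diamonds are differences of means without CoA replicate 2, and dotted lines mark 2-fold. The interval of PLN lies above 0 for CoA vs Control and that of SLN for Corrected vs Control, and the diamonds of CASQ2, RYR2 and ANKRD1 fall on the other side of 0 from the estimates for CoA vs Corrected.

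SLN had a log2 signal of 7.72, 7.15, 7.64 and 7.28 in the Control rabbits, and of 7.37, 9.50, 7.39 and 7.60 in the CoA rabbits. In Corrected replicates 1, 2 and 4 it had 8.35, 9.58 and 8.89, all above every Control rabbit. The mean was 7.45 ± 0.28 (SD, n = 4) in Control and 8.94 ± 0.62 (SD, n = 3) in Corrected. The difference was 1.5 on the log2 scale (SE 0.51, 95% confidence interval 0.37 to 2.62), or 2.82-fold, with an adjusted p of 0.486 in limma. The two-sided exact permutation test gave p = 0.029, again the smallest that these group sizes allow, and 8.84% of all tested probes had groups that did not overlap in this comparison.

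The other SLN probes did not separate the groups in this way. Of 4 SLN probes tested, 1 was called for Corrected vs Control, although the differences of all 4 were positive and ran from 1.5 to 2.85. The other 3 tested probes were high on Corrected replicates 1 and 2 and on CoA replicate 2, but not on Corrected replicate 4. One of them had 7.71 and 10.60 on Corrected replicates 1 and 2, 8.48 on CoA replicate 2, 3.39 on Corrected replicate 4, and 3.62 to 5.03 in the Control rabbits. On all 5 probes, Corrected replicate 2 had the highest signal of the 11 arrays, which was the case for 7.94% of tested probes overall. Without Corrected replicate 2 the brightest SLN probe was not called (log2 fold change 1.17), and with the mean of the detected SLN probes in its place the value was 2.30 and was not called either.

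Of the 10 fast skeletal genes with a named probe, 3 (MYH1, ATP2A1 and MYL1) were high on the same Corrected arrays. MYH1, a fast myosin heavy chain, had 7.33 and 9.96 on Corrected replicates 1 and 2, and 3.93 to 5.27 on the other 9 arrays used. It was called for Corrected vs Control. ATP2A1, the calcium pump of fast muscle, had 6.71 and 8.77 on these arrays and 4.99 or less elsewhere. The myosin light chain MYL1 was detected on 4 arrays and was not tested, with 5.31 and 8.57 on these arrays and 3.10 or less elsewhere. The rest of the list did not follow this pattern. TNNI2 (6.19 and 5.73) and RYR1 (4.68 and 4.98) lay within their Control ranges on these arrays, and CASQ1, detected on 2 arrays, had its highest signal, 6.61, on Corrected replicate 4. TNNC2, the other of 2 genes called among the 7 tested, had 11.93, 10.74 and 11.86 on Corrected replicates 1, 2 and 4. The mean of the 7 fast skeletal genes tested was 5.39 to 6.06 in Control and 5.92 to 7.33 in Corrected. The part of these genes in the SLN difference was not tested.

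For CoA vs Control, the log2 fold change of SLN was 0.52 ± 0.47 (SE, limma adjusted p = 0.626), and without CoA replicate 2 it was 0.01. For CoA vs Corrected it was -0.98 (95% confidence interval -2.10 to 0.14). Without CoA replicate 2 this value was -1.49 and the probe was called as lower in CoA, with an adjusted p of 0.855. The 3 other CoA rabbits, at 7.37 to 7.60, lay below all 3 Corrected rabbits. Without CoA replicate 2, 777 of the 27283 tested probes were called for CoA vs Corrected. With that array in, 4.2% of all tested probes had groups without overlap in this comparison. The share without it was not computed, and leaving an array out can only raise it.

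**Figure D3:**
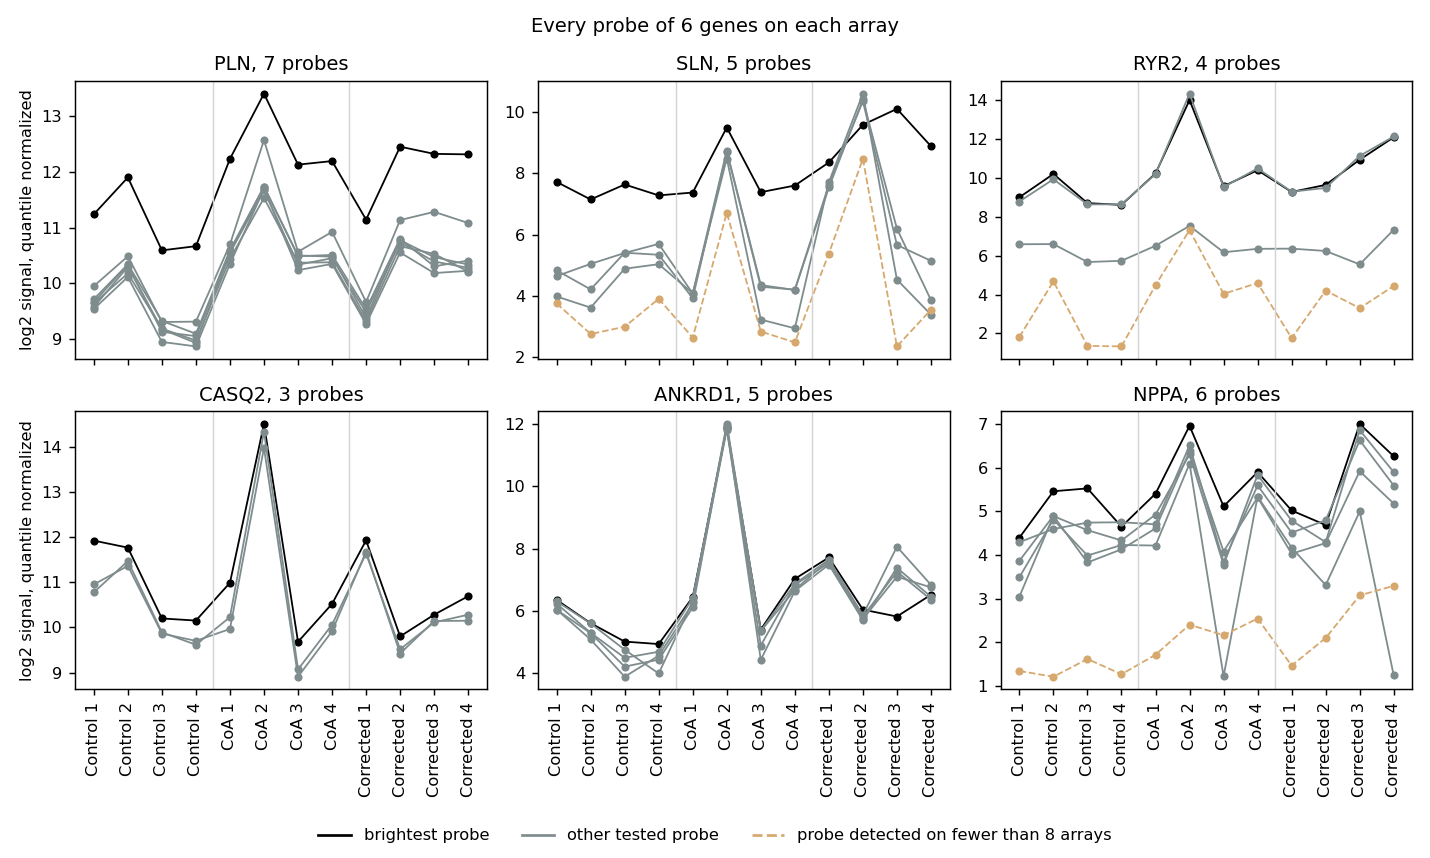
Log2 signal (vertical axis) of every probe of PLN, SLN, RYR2, CASQ2, ANKRD1 and NPPA on each of the 12 arrays (horizontal axis), with grey lines between the groups. The black line is the brightest probe, grey lines are other tested probes and dashed lines are probes detected on fewer than 8 arrays. The 7 PLN probes and the 5 ANKRD1 probes run together, whereas the brightest SLN probe lies above the other tested SLN probes on most arrays. It comes close to them on CoA replicate 2 and Corrected replicate 1, and lies below them on Corrected replicate 2.

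RYR2, the calcium release channel, had a log2 signal of 9.01, 10.20, 8.71 and 8.61 in the Control rabbits. In the CoA rabbits it had 10.23, 14.01, 9.57 and 10.40, and in the Corrected rabbits 9.28, 9.64 and 12.09. CoA replicate 2 was 15.3-fold above the mean of the other CoA rabbits and 3.76-fold above the next highest array, Corrected replicate 4. The log2 fold change for CoA vs Control was 1.92 ± 0.93 (SE, limma adjusted p = 0.376), the two-sided exact permutation test gave p = 0.057, and without CoA replicate 2 the value was 0.94. For Corrected vs Control it was 1.21 ± 1.00 (SE, limma adjusted p = 0.778), and 0.33 without Corrected replicate 4. CoA vs Corrected turned from 0.71 to -0.27 when CoA replicate 2 was left out. Of the 4 RYR2 probes, 3 were tested, and the dimmest of those had a smaller gap of 2.28-fold on CoA replicate 2.

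CASQ2, the calcium buffer of the store, had a log2 signal of 11.92, 11.76, 10.20 and 10.15 in the Control rabbits and of 10.99, 14.50, 9.68 and 10.52 in the CoA rabbits. The Corrected rabbits had 11.92, 9.80 and 10.69, within the range of the other groups. CoA replicate 2 was 17.2-fold above the mean of the other CoA rabbits and 5.95-fold above every other array. The mean was 11.01 ± 0.96 (SD, n = 4) in Control and 11.42 ± 2.12 (SD, n = 4) in CoA, and without CoA replicate 2 it was 10.40 ± 0.66 (SD, n = 3). The log2 fold change for CoA vs Control thereby went from 0.41 (limma adjusted p = 0.868) to -0.61, and neither value was called. All 3 CASQ2 probes showed both signs in this way, with 0.22 to 0.48 with this array and -0.87 to -0.61 without it.

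HRC, the other calcium binding protein of the store, was near background. Its brighter probe was detected on 5 of 12 arrays, namely Control replicates 1 to 3, CoA replicate 2 and Corrected replicate 4. Its log2 signal was 2.92 to 3.83 in Control, 3.15 to 5.13 in CoA and 2.24 to 4.47 in Corrected, and it was highest on CoA replicate 2. The second probe was detected only on Corrected replicate 2. No test was made for HRC.

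ANKRD1, the load-induced ankyrin repeat protein, had a log2 signal of 6.36, 5.61, 5.02 and 4.94 in the Control rabbits. In the CoA rabbits it had 6.45, 11.88, 5.41 and 7.03, and in the Corrected rabbits 7.72, 6.05 and 6.52. CoA replicate 2 was 48.0-fold above the mean of the other CoA rabbits, and 17.9-fold above the next highest of the 11 arrays, Corrected replicate 1. A gap over 8-fold above the other CoA rabbits was seen for 0.95% of all tested probes on this array. The 5 ANKRD1 probes gave this gap alike, from 48.0-fold to 73.2-fold, and their correlation over the arrays was at least 0.983. The log2 fold change for CoA vs Control was 2.21 ± 1.13 (SE, limma adjusted p = 0.395), the two-sided exact permutation test gave p = 0.114, and the value was 0.81 without CoA replicate 2.

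For Corrected vs Control, ANKRD1 gave 1.28 ± 1.22 (SE, limma adjusted p = 0.809; two-sided exact permutation p = 0.086). Of the 3 Corrected rabbits, 2 were above all Control rabbits. This standard error rests on a spread shared with the CoA group, and with CoA replicate 2 left out it was 0.52 and the probe was called at the same fold change, with an adjusted p of 0.394. CoA vs Corrected turned from 0.93 to -0.47 without that array.

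NPPA, the natriuretic peptide, was dim, with a log2 signal of 4.40, 5.46, 5.53 and 4.65 in the Control rabbits. It had 5.40, 6.96, 5.11 and 5.90 in the CoA rabbits and 5.02, 4.69 and 6.26 in the Corrected rabbits, so that all groups overlapped. CoA replicate 2 was the highest of the 11 arrays, at 2.81-fold above the mean of the other CoA rabbits, and 10.1% of all tested probes had a larger gap on that array. The log2 fold change was 0.84 ± 0.48 (SE, limma adjusted p = 0.439) for CoA vs Control, and 0.47 without CoA replicate 2. It was 0.32 ± 0.52 (SE, limma adjusted p = 0.902) for Corrected vs Control. The 5 tested NPPA probes were less alike than those of PLN or ANKRD1, with correlations down to 0.277, and a sixth probe was not detected on any array.

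The gap on CoA replicate 2 was not shared by all members. Of the 7 tested genes, 5 (RYR2, CASQ2, PLN, NPPA and ANKRD1) were highest on that array, SLN was second to Corrected replicate 2, and ATP2A2 was 0.75 times the mean of the other CoA rabbits. The gap was over 8-fold for 3 of the 7 genes. Over all tested probes, 24.9% were highest on that array and 0.95% had a gap over 8-fold. Dim probes in general were raised on this array: the median log2 gap to the other CoA rabbits was 0.56 for probes with a mean log2 signal under 5. It was 0.12 for those between 5 and 7, the range of NPPA and ANKRD1, where 25.6% had a gap over 2-fold. It was -0.10 for those between 9 and 11, the range of RYR2 and CASQ2, where 10.8% had one.

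Other heart and striated muscle genes were high on CoA replicate 2 as well. TNNC1, the troponin C of heart and slow muscle, had 16.21 there and 8.83 to 13.19 on the other 10 arrays used, and it was also called higher for Corrected vs Control (log2 fold change 2.39, limma adjusted p = 0.595). The muscle creatine kinase CKM had 13.27 against 3.11 to 6.43, and its mitochondrial form CKMT2 had 14.16 against 3.39 to 8.38. TRDN, the triadin that ties the release channel to calsequestrin, had 8.74 against 5.02 to 6.30. Of the 42 genes of the sarcomere and conduction list, 13 had a named probe and 11 were tested. Of these 11 genes, 8 were highest on CoA replicate 2 and 4 were over 8-fold above the other CoA rabbits. Over all tested probes these shares were 24.9% and 0.95%. The mean of these 11 genes was 9.98 on CoA replicate 2, 6.75 to 6.86 on the other CoA arrays, 6.66 to 7.35 in Control and 6.79 to 7.47 in Corrected. The heart-defining genes MYH6, MYH7, TNNT2, TNNI3, ACTC1 and MYL2 were not analysed here. Symbols were matched through RefSeq accessions alone, and probes annotated in other ways were not named. The fast skeletal genes MYH1 and ATP2A1, at 4.45 and 4.59, were not raised on this array, although TNNC2, which the fast skeletal list also holds, had 15.07 there and 8.12 to 11.93 elsewhere. Smooth muscle genes went both ways: ACTA2 was lower there, at 14.47, than on the other CoA arrays, at 15.95 to 16.37, whereas KCNMA1 was higher, at 9.18 against 6.58 to 6.97. The mean of the 7 smooth muscle genes was 10.93 there, within the 10.57 to 11.09 of the other CoA arrays. The part of any of these genes in the member values was not tested.

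**Figure D4:**
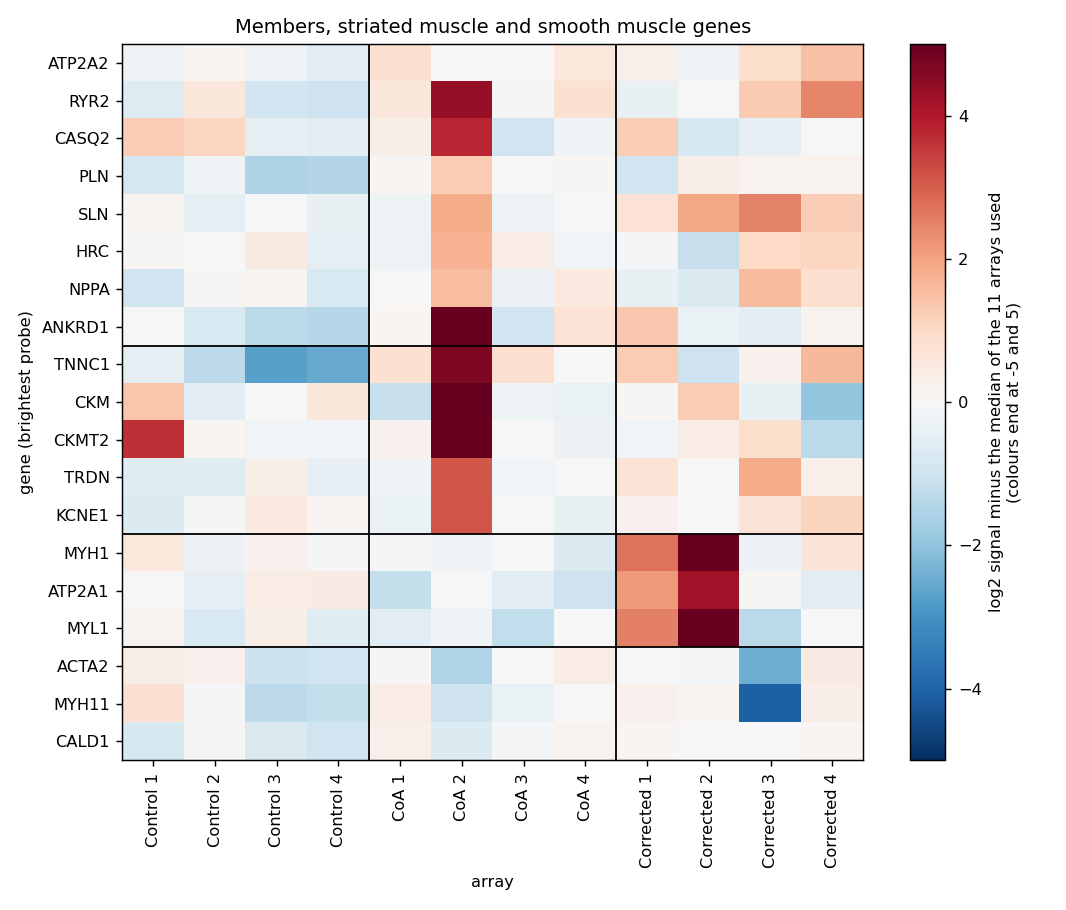
Log2 signal minus the median of the 11 arrays used (colour, from blue for low to red for high) for the 8 members, 5 genes of heart or striated muscle, 3 of fast skeletal muscle and 3 of smooth muscle (vertical axis) on each of the 12 arrays (horizontal axis). RYR2, CASQ2, ANKRD1, TNNC1, CKM and CKMT2 are red on CoA replicate 2, and MYH1, ATP2A1 and MYL1 are red on Corrected replicates 1 and 2.

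Of 52 other calcium handling genes, 25 had a named probe and 21 were tested. For CoA vs Control, 2 were called higher, namely JPH1, a junctophilin that joins the cell membrane to the store (log2 fold change 1.69, limma adjusted p = 0.285), and CACNB2, a subunit of the L-type calcium channel (1.34, adjusted p = 0.322). One was called lower, the calcium binding protein sorcin, SRI (-1.35, adjusted p = 0.289), and the other 18 were not called. Without CoA replicate 2 the differences were 1.53 for JPH1, 1.07 for CACNB2 and -1.12 for SRI. For Corrected vs Control, calumenin, CALU, was called higher (1.42, adjusted p = 0.578). For CoA vs Corrected, ATP2A1, SRI and CALU were called lower, with log2 fold changes of -2.62, -2.34 and -1.34. The median of the 21 genes was 0.09, 0.47 and -0.07 in the 3 comparisons.

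JPH1 had a log2 signal of 9.10, 10.82, 8.66 and 8.55 in the Control rabbits and 11.14, 11.44, 10.23 and 11.08 in the CoA rabbits, and so overlapped through Control replicate 2. That rabbit also had the highest PLN, RYR2 and CACNB2 signals of the Control group. Of 8 other stress genes tested, the transcription factor JUN was called higher for CoA vs Control (1.39, limma adjusted p = 0.321) and its partner FOS for Corrected vs Control (2.08, adjusted p = 0.531). Both were also positive where not called, with FOS at 1.36 for CoA vs Control and JUN at 1.26 for Corrected vs Control. FOS had 10.84, 9.67 and 10.22 on CoA replicates 1, 3 and 4, and 7.21 on CoA replicate 2. Its Control signals were 7.65 to 9.39. NPPB, the companion of NPPA in the loaded heart, was not analysed here.

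The 10 genes whose signals most resembled the mean profile of the 7 tested members over the 11 arrays were NGB, MLNR, LOC100341106, CACNA1E, TRIM72, ADRA1A, CYP2G1, KLK1, ASB5 and SLC1A1, out of 949 candidates. Their Pearson correlation with the profile was 0.926 to 0.983 and Spearman's rho was 0.700 to 0.973. The member profile had its highest value, 2.41, on CoA replicate 2, and all 10 genes were higher there than in the other CoA rabbits, by 1.31 to 3.45 on the log2 scale. Without that array the correlations were 0.749 to 0.950. TRIM72, a membrane repair protein of striated muscle, and CACNA1E, a voltage-gated calcium channel, are among them. These genes were ranked on the same arrays, which is a description and not a test.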

How the data were processed

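RNA of 12 aortic rings was measured on 12 single-colour arrays. The files deposited by the authors came from Agilent Feature Extraction 11.0.1.1 (per the labels), in which the processed signal is an intensity already corrected for background within the array and not normalized between arrays. The deposited median spot intensity and local background were used for an alternative, and the deposited flags gave detection (both positive and significant, and well above background, on most spots of a probe). There were 43803 non-control spots on an array, and 0 were saturated. The few arrays per group limit the precision, as does the background for dim probes.

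Control and outlier spots were left out, spots of a probe were averaged, and log2 signals were quantile normalized over the 12 arrays. Probes detected on at least 8 of 12 arrays (27283 of 43603) entered 1 limma 3.58.1 model (R 4.3.3) of 11 arrays with a mean per group. Tests were two-sided. Symbols came from RefSeq accessions, matched to the rabbit gene table of mOryCun1.1 for 3368 probes, and no coordinates were used since the array was designed on another assembly. Single genes were also tested by exact permutation of rabbits. Simulated data in which 200 probes had been changed were used to check the test. Python 3.11.15, numpy 2.4.6, pandas 2.3.3, matplotlib 3.10.9 and statmod 1.5.0 were also used.

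The members, the gene lists and the tests were chosen with earlier results of these data known. Named genes were the members, called genes of the other calcium list, the 10 genes most like the mean member profile, and the brightest genes of the marker lists. Other genes shown beside the members (TNNC1, CKM, CKMT2, TRDN, MYH1, MYL1, ACTA2, JUN, FOS, KCNMA1, TNNI2, RYR1, CASQ1, TNNC2, CD3E, CD247, CD4, CD28, UCP1 and called markers) were chosen after their values were seen. Alternatives covered scaling, background correction, detection, arrays, blocks for slide and replicate number, the probe that stands for a gene, and leaving out each array. In a further alternative, Control replicates 3 and 4 were taken as 1 sample. The list of nerve genes is not reported here as a whole.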

Additional observations from a re-analysis of the deposited data

Results flagged for a closer look

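PLN on CoA replicate 2 lay apart from the other CoA rabbits, with a log2 signal of 13.40 against 12.13 to 12.23, and its gap to the nearest rabbit was 0.919 of the range of the group. SLN on the same array had 9.50 against 7.37 to 7.60, with a gap of 0.893 of the range. Both exceed Dixon's 95% critical value for 4 samples. Chance flags about 1 group in 20, and 16 groups were examined (8 genes in the Control and in the CoA rabbits). Over all tested probes, 13.9% had 1 CoA array apart by this measure, and 5.5% had CoA replicate 2 apart above the others. RYR2, CASQ2 and ANKRD1 had larger gaps on this array but did not pass, because the other CoA rabbits also differed among themselves.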

How the results depend on the processing

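Over 490 alternative values of single genes, 453 kept their direction and their side of the threshold, 20 became called, 2 lost their call and 15 changed sign, none of which was called in the main analysis. The brightest PLN probe was called for CoA vs Control in all 23 alternatives, at 1.09 to 1.75 on the log2 scale. SLN lost its call for Corrected vs Control with the mean of the probes and without Corrected replicate 2, where ATP2A2 was called in its place. The number of genes called for CoA vs Control, 1, was 2 with scaling to the 75th percentile, 3 with array weights over 12 arrays, 3 with slide as a random block, and 1 to 3 with 1 array left out (3 without CoA replicate 3, 2 without Control replicate 2 and 2 without Corrected replicate 4). For Corrected vs Control, 1, it was 4 with array weights, 2 with only the groups compared, 0 with the mean of the probes, and 1 to 2 with 1 array left out (2 without Control replicate 2, CoA replicate 2 or Corrected replicate 1). For CoA vs Corrected, 0, it was 1 with all 12 arrays, 1 with array weights and 0 to 1 with 1 array left out (SLN, without CoA replicate 2). With array weights the limma adjusted p for CoA vs Control was 4.2e-04 for PLN, 0.0048 for ATP2A2, 0.0053 for RYR2 and 0.011 for ANKRD1. Of these, ATP2A2 was not called, with a log2 fold change of 0.89. Over the whole array, 11065 probes passed adjustment in this setting. The cause of these differences was not tested. With slide as a random block, 867 probes passed adjustment for CoA vs Control. That block cannot adjust this comparison for the slide, since the slide of the CoA arrays held no other group.

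Signs changed for CASQ2 for CoA vs Control (-0.61 without CoA replicate 2; -0.61 to 0.99 over arrays left out) and for Corrected vs Control (0.63 with array weights; -0.76 to 0.30 over arrays left out). They changed for NPPA for Corrected vs Control (-0.15 with slide as a fixed block; -0.15 to 0.63 over arrays left out). For CoA vs Corrected they changed for ATP2A2 (0.010 with 75th percentile scaling, 0.059 with array weights; -0.54 to 0.28 over arrays left out), RYR2 (-0.27 to 1.59), CASQ2 (-0.29 with array weights; -0.41 to 1.20) and ANKRD1 (-0.20 with array weights; -0.47 to 1.69). Scaling to the 75th percentile moved the median of all probes to 0.21, 0.13 and 0.07, and turned the 979 higher and 1422 lower calls for CoA vs Control into 1525 and 1224. Background correction by normexp, with its offset of 50, gave 1017, 584 and 131 calls in place of 2401, 1469 and 754.

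The replicate numbers are not said to pair the rabbits. The deviations of 10 same-numbered pairs correlated from -0.445 to 0.448, with 2 above 0.1. Those of 30 pairs with different numbers correlated from -0.54 to 0.44, with 11 above 0.1. So few arrays cannot exclude a pairing. With the replicate block, 1, 1 and 0 genes were called, with PLN at 1.39 and SLN at 1.43, and no call changed. Slide 1 held Control replicates 1, 2 and 4 and Corrected replicate 2, and within it SLN was 2.20 and PLN 1.18 higher in the Corrected rabbit on the log2 scale. These values rest on that 1 Corrected array, which had the highest SLN signal of the arrays used and without which SLN was not called. HRC had a value only without the detection filter, and the brightest ANKRD1 probe was not among those detected on all 12 arrays.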
